A study of Mus musculus with 6 samples.

Results

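The p53 pathway was examined through 30 genes, namely Trp53, its regulators and reported p53 targets, chosen by symbol among the 17523 entries of a count table. Earlier results of these data were known when the genes were chosen. All 30 had a row, and the genes of the BCL2 family and Cdkn1a were not among them. The libraries came from FACS-sorted marrow cells of C57BL/6 mice, 3 from wild type (WT) and 3 from NHD13 mutant mice. The NHD13 transgene joins NUP98, which encodes a nuclear pore protein, to the homeobox gene HOXD13, and mice that carry it develop a myelodysplastic disease of the blood. The series calls the cells hematopoietic stem cells. The sources used here do not give the sort markers, the age of the mice, the promoter of the transgene or whether a library pools mice. The p-values therefore measure the spread between these libraries, which may be technical in part and includes differences in sex make-up. The counts given below show RNA of female and male cells together in WT replicates 1, 2 and 3 and in NHD13 replicate 3.

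p53, the product of Trp53, is a transcription factor that damaged DNA, nucleotide shortage and other stresses stabilise. It binds paired decamers near its targets and raises genes for growth arrest, DNA repair and apoptosis, and also Mdm2, whose product marks p53 for degradation and so closes a feedback loop. In blood stem and progenitor cells p53 is known to restrain cycling and to remove damaged cells.

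Total counts ran from 12541538 to 14388772 per library, so that 1 count stood for 0.0691 to 0.0791 CPM (counts scaled to library size and TMM factor). The fusion row had 0 counts in every WT library and 185, 179 and 167 in NHD13 replicates 1, 2 and 3. Long-term stem cell markers were a small part of the RNA, at a summed 321 to 380 CPM over 14 genes, with Procr and Fgd5 under 1 CPM in both groups, while 11 neutrophil genes summed to 36641 to 62878 CPM. Of the 14 stem cell markers Kit alone averaged 254 CPM in WT and 227 CPM in NHD13. On the first principal component (75.6% of the variance) NHD13 replicates 1, 2 and 3 lay at 25.6, 42.4 and 38.1. The WT libraries lay at -38.4 to -32.2. NHD13 replicate 1 stood apart from NHD13 replicates 2 and 3 on the second component (12.3% of the variance, 28.2 against -9.44 and -14.1). Its counts differed from theirs by a chi-square per degree of freedom of 50.22 and 48.54, within the range of pairs across the groups (39.22 to 62.59). Xist, an RNA of female cells, had 5852 to 15472 counts in the WT libraries and 34, 28 and 9885 in NHD13 replicates 1, 2 and 3, and Y-linked genes took 0.0109% to 0.0194% of the counts in WT and 0.0177% to 0.028% in NHD13. Beside these Xist counts, WT replicates 1, 2 and 3 had 2429, 1476 and 1622 Y-linked counts, and NHD13 replicate 3 had 2541. Each of these libraries therefore held RNA of both female and male cells, and so of more than 1 mouse. The mix of female and male RNA thus differed between libraries and between the groups, and every comparison between WT and NHD13 carries that difference.

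Of the 30 genes, 27 were abundant enough to test (a minimum count of 10 by filterByExpr), and 7 of them differed between NHD13 and WT. Trp53, the apoptosis nuclease gene Aen and the stress gene Sesn2 rose. The death receptor gene Fas, the p53-inducible nuclear protein gene Trp53inp1 and the antiproliferative genes Btg1 and Btg2 fell. The 3 higher and 4 lower genes came to 25.9% of those tested, where 30.3% of all 12013 tested genes passed the same threshold (15% higher and 15.3% lower; edgeR quasi-likelihood test, Benjamini-Hochberg adjusted p under 0.05). The share that changed was therefore near that of the transcriptome as a whole. Leaving out WT replicate 1, 2 or 3 brought the share of all tested genes that passed to 23.1%, 14.7% and 14.7%, and leaving out NHD13 replicate 1, 2 or 3 brought it to 48.7%, 15% and 15.9%. It was 29.6% under upper-quartile scaling, 30.1% under total-count scaling, 30.2% by limma-voom and 21.6% with no filter on low counts.

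The changes were small and went both ways. The median log2 change over the 27 tested genes was -0.02, against 0.00 over all tested genes, and the median size of the change, regardless of sign, was 0.20 against 0.22. The extremes were -0.86 for Fas and 0.76 for Sesn2, so that none of the 27 changed 2-fold, a size that 251 higher (2.09%) and 680 lower (5.66%) of all tested genes passed together with the threshold. The libraries of the groups did not overlap for 10 of the 27 genes, 5 with NHD13 above and 5 with WT above, or 37%, against 46.1% of all tested genes. Added over the 30 genes, expression was 1364 CPM ± 18.8 (SD, n = 3) in WT and 1377 CPM ± 12.9 in NHD13, with overlapping libraries.

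**Figure D1:**
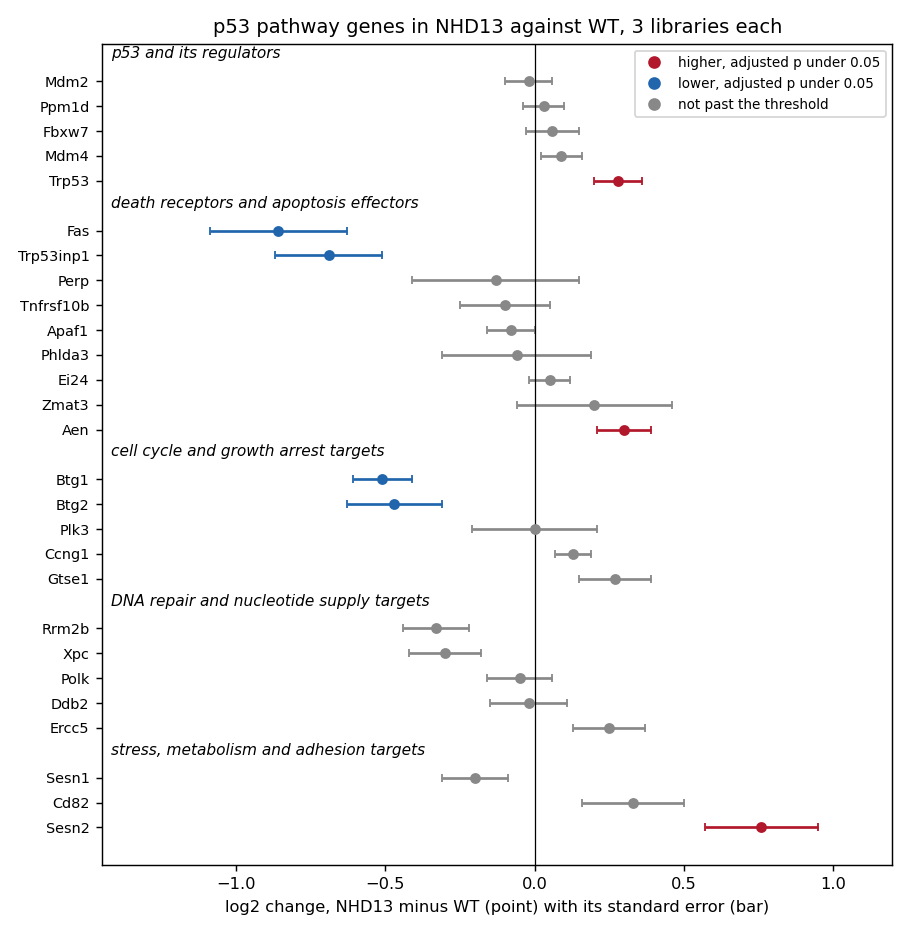
Log2 change of each of the 27 tested genes (NHD13 minus WT, x axis; points with standard errors, 3 libraries per group), grouped by role. Of the tested genes 3 lie to the right (Trp53, Aen, Sesn2) and 4 to the left (Fas, Trp53inp1, Btg1, Btg2) with an adjusted p under the threshold. The 5 DNA repair genes hold none of them, where 30.3% of all tested genes passed.

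**Figure D2:**
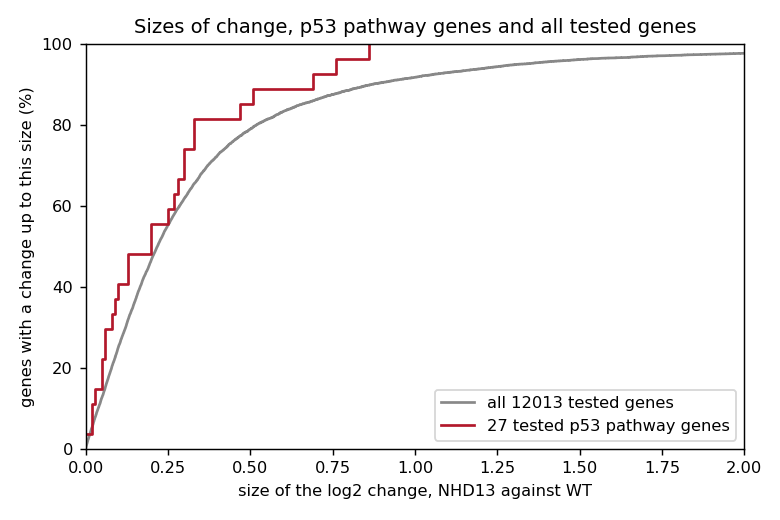
Cumulative share of genes (y axis, %) whose log2 change is no larger than the size on the x axis, for the 27 tested p53 pathway genes and all 12013 tested genes. The curve of the pathway genes ends at 0.86, the size of the change of Fas, while that of all genes runs past the right edge.

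Trp53 itself rose. It had 1845, 1900 and 1852 counts in WT replicates 1 to 3 and 2104, 2420 and 2620 in NHD13 replicates 1 to 3, which was 146, 141 and 129 CPM against 158, 168 and 181 CPM. All 3 NHD13 libraries lay above all 3 WT libraries. The log2 change was 0.28 (SE 0.08, 1.22-fold, adjusted p = 0.0237). The change stayed between 0.22 and 0.37 in every alternative fit, and the adjusted p was above the threshold when WT replicate 2 or 3 was dropped (0.0688 and 0.103) or NHD13 replicate 2 or 3 was (0.0806 and 0.108). Trp53 lies on chromosome 11, at 69580359 to 69591873 (mm10, GENCODE) on the plus strand.

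The promoter window of Trp53 (chr11:69580109-69580408, plus strand, GRCm38.p6, RefSeq) is shown because it holds 1 exact match to the p53 half-site, the decamer to which p53 binds in pairs. The match is in capitals and starts 75 bases before the transcription start.
Trp53 promoter: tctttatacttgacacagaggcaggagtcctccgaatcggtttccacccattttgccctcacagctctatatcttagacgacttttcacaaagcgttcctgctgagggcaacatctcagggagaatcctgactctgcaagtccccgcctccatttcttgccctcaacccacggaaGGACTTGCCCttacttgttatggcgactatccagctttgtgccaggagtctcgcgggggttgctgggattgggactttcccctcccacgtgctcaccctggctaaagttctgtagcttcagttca

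None of the 4 other genes of this group passed the threshold. Trp53 alone came to 20% of the 5, against 30.3% of all tested genes. Mdm2, the ubiquitin ligase gene of the feedback loop, was at 76, 73.8 and 69.1 CPM in the WT libraries and 78.2, 66.8 and 70.4 CPM in NHD13 replicates 1 to 3, with overlapping groups. Its log2 change was -0.02 with a 95% interval of -0.20 to 0.16 (adjusted p = 0.848). Mdm4, which encodes the partner of MDM2 that masks the activation domain of p53, had 157, 139 and 149 CPM in WT against 163, 148 and 162 CPM in the NHD13 libraries (log2 0.09, interval -0.07 to 0.25, adjusted p = 0.37). Neither gene passed in any of the 15 alternative fits.

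Ppm1d, the gene of the WIP1 phosphatase that switches p53 signalling off, averaged 31.1 CPM ± 0.493 (SD, n = 3) in WT against 31.7 CPM ± 0.758 (n = 3) in NHD13 (log2 0.03, interval -0.14 to 0.19). Fbxw7, a p53 target that encodes the substrate receptor of a ubiquitin ligase for MYC, NOTCH and cyclin E, was at 24 CPM ± 1.49 and 25 CPM ± 1.05 (log2 0.06, interval -0.14 to 0.26). The intervals of all 4 genes lay within a log2 change of -0.20 to 0.26.

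**Figure D3:**
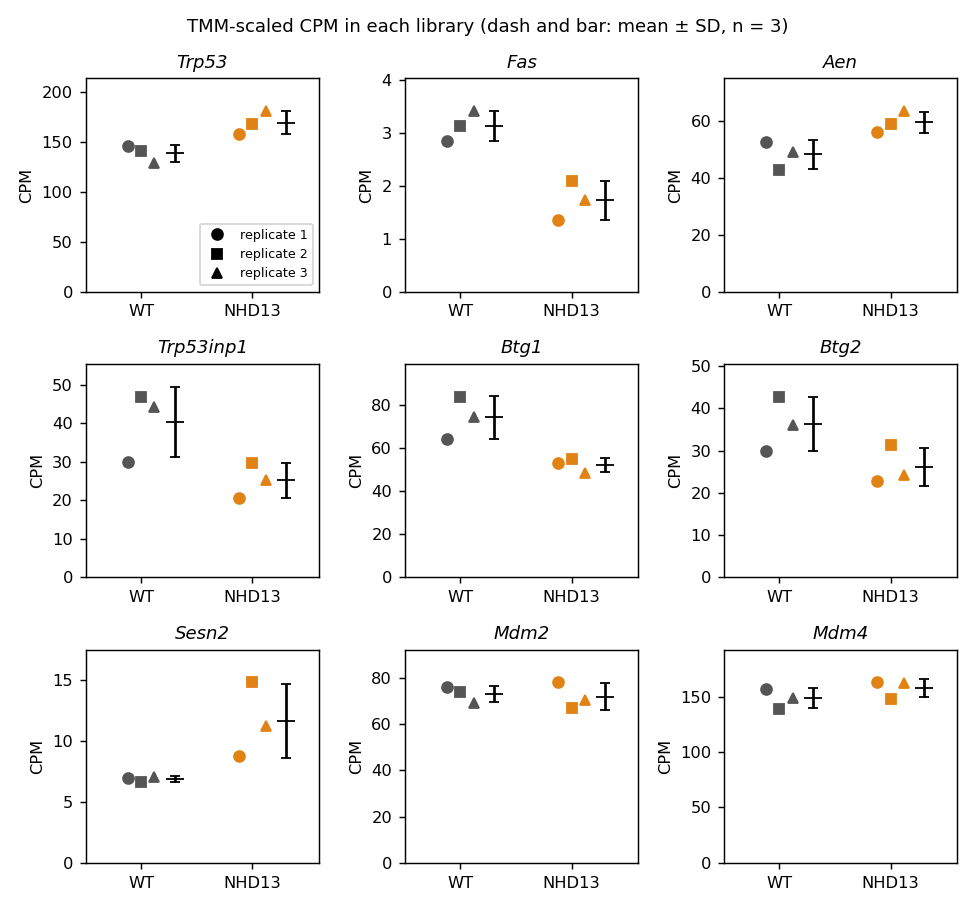
TMM-scaled CPM in every library (y axis from 0) of the 7 genes past the threshold and of Mdm2 and Mdm4; symbols mark the replicate numbers, and dashes with bars the mean ± SD of 3 libraries. WT and NHD13 libraries are apart for Trp53, Fas, Aen, Trp53inp1, Btg1 and Sesn2 and overlap for Btg2, Mdm2 and Mdm4.

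Among the 10 genes of death receptors and apoptosis effectors, 9 were tested, of which 1 rose and 2 fell. The 3 came to 33.3%, against 30.3% of all tested genes. Fas, the death receptor that FAS ligand engages, had 36, 42 and 49 counts in WT and 18, 30 and 25 in NHD13, or 2.85, 3.13 and 3.41 CPM against 1.35, 2.09 and 1.73 CPM. Every NHD13 library was below every WT library. The fall of 0.86 on the log2 scale (SE 0.23, 1.81-fold, adjusted p = 0.024) was the largest among the 27 tested genes and rested on fewer than 50 counts per library. Dropping WT replicate 2 or 3 ended the call (adjusted p = 0.0745 and 0.0962), as did dropping NHD13 replicate 3 (0.073).

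Trp53inp1, whose product promotes p53-dependent death and autophagy, had 379, 630 and 634 counts in WT and 274, 425 and 364 in NHD13, or 30, 46.9 and 44.2 CPM against 20.6, 29.6 and 25.2 CPM. WT replicate 1 and NHD13 replicate 2 nearly met, and the others were well apart. Its log2 change was -0.69 (SE 0.18, 1.61-fold lower, adjusted p = 0.0237). It did not pass with WT replicate 2 or 3 left out (adjusted p = 0.103 and 0.0965), nor with NHD13 replicate 1 or 3 left out (0.0572 and 0.0616).

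Aen, which encodes an exonuclease that degrades DNA during p53-dependent apoptosis, rose from 52.9, 43 and 49.3 CPM in WT (669, 578 and 708 counts) to 56.3, 59.2 and 63.7 CPM in NHD13 (751, 851 and 921 counts). The groups did not overlap, and the closest libraries were both numbered 1. The log2 change was 0.30 (SE 0.09, 1.23-fold, adjusted p = 0.0375). Aen missed the threshold under upper-quartile scaling (adjusted p = 0.0583), without either of WT replicates 2 and 3 (0.117 and 0.101) and without either of NHD13 replicates 2 and 3 (0.103 and 0.146).

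One of 2 overlapping promoter windows of Aen (chr7:78895677-78895976, plus strand, GRCm38.p6, RefSeq) is shown as the other rising gene with a p53 half-site, which is in capitals and starts 11 bases into the transcript.
Aen promoter: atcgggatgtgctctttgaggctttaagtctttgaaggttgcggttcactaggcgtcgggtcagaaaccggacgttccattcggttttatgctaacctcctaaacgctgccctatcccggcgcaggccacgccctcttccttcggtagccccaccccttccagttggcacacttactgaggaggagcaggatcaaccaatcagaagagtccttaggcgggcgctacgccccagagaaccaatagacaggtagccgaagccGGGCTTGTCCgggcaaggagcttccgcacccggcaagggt

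The remaining tested death genes did not pass the threshold. Apaf1, the scaffold gene of the apoptosome, was the most abundant with 187 CPM ± 0.514 in WT against 177 CPM ± 19.6 in NHD13 (log2 -0.08, interval -0.26 to 0.11). NHD13 replicate 1, at 197 CPM, lay above the WT libraries and replicates 2 and 3, at 177 and 158 CPM, below them, and without NHD13 replicate 1 Apaf1 passed as lower (log2 -0.16, adjusted p = 0.0498). Ei24, a gene of the endoplasmic reticulum induced by p53, was at 71.1 CPM ± 0.995 and 73.4 CPM ± 4.25.

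The others were low. Tnfrsf10b, the mouse TRAIL death receptor gene, was at 8.37 and 7.8 CPM in WT and NHD13, Zmat3, an RNA-binding target of p53, at 4.03 and 4.63 CPM, Perp, a membrane protein gene of p53-dependent death, at 2.14 and 1.96 CPM, and Phlda3, an inhibitor of AKT, at 1.32 and 1.25 CPM. Their 95% intervals were wide, from -0.78 to 0.52 for Perp and -0.39 to 0.80 for Zmat3.

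Eda2r, a receptor of the tumour necrosis factor family for ectodysplasin A2 and a direct p53 target on the X chromosome, was below the count filter. It had 10, 8 and 8 counts in WT and 3, 2 and 0 in NHD13. The ratio of NHD13 to WT was 0.184 (exact 95% counting interval 0.0551 to 0.486, counting error only), and in the fit with no filter on low counts its log2 change was -2.35 (SE 0.67, edgeR adjusted p = 0.0232). It thus had the largest ratio between groups of any of the 30 genes with counts in both groups, at 31 counts in all. Eda2r is X-linked, and the part of the sex make-up of the libraries in its values was not tested.

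Of the 6 genes of the cell cycle and growth arrest, 5 were tested, of which 2 fell and none rose. The 2 came to 40%, against 30.3% of all tested genes. Btg1, an antiproliferative cofactor of mRNA deadenylation that marks quiescent cells, had 812, 1129 and 1074 counts in WT and 712, 789 and 702 in NHD13, or 64.2, 84.1 and 74.8 CPM against 53.4, 54.9 and 48.5 CPM. All NHD13 libraries were below all WT libraries. Its log2 change was -0.51 (SE 0.10, 1.42-fold lower, adjusted p = 0.00865), and of the 7 calls it alone survived the removal of any single library (adjusted p = 0.00248 to 0.0423).

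Btg2, its paralog and a direct p53 target, was at 30, 42.8 and 36 CPM in WT and 22.8, 31.3 and 24.3 CPM in NHD13. NHD13 replicate 2 lay above WT replicate 1, so the groups overlapped. The log2 change of -0.47 (SE 0.16, adjusted p = 0.0492) was just past the threshold, and was not past it without a filter on low counts (adjusted p = 0.0507), by limma-voom (0.0504) or when WT replicate 2 or 3 (0.179 and 0.127) or NHD13 replicate 1 or 3 (0.0793 and 0.135) was removed. Btg2 is also an immediate early gene. Of 12 tested genes of that class Fos and Fosl2 fell and Jund rose, or 25% against 30.3% of all tested genes. The median log2 change over the list was -0.12. The summed level of the 16 immediate early genes was 320 to 364 CPM in WT and 281 to 345 CPM in NHD13, and its part in the fall of Btg2 was not tested.

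Ccng1, the cyclin G1 gene and an established p53 target, did not pass. It was at 97.2, 95.5 and 98.8 CPM in WT and 106, 109 and 103 CPM in NHD13, so that every NHD13 library was above every WT library. The difference was small, a log2 change of 0.13 (SE 0.06, interval -0.01 to 0.27, adjusted p = 0.143), and it did not pass in any alternative fit.

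Gtse1, which encodes a microtubule-associated protein of G2 and mitosis that moves p53 out of the nucleus, was at 59.3, 47.3 and 42.7 CPM in WT and 60.6, 61.3 and 57.7 CPM in NHD13. WT replicate 1 lay among the NHD13 libraries. The log2 change of 0.27 (SE 0.12) did not pass (adjusted p = 0.109), and passed without WT replicate 1 (log2 0.40, adjusted p = 0.0199). Of 20 genes of G2-M and mitosis, all tested, Ccnb1, Ccna2 and Plk1 rose and Kif23 fell, or 20% against 30.3% of all tested genes. A positive log2 change was found for 17 of the 20, and for 6021 of all 12013 tested genes. The summed level of these 20 was 5828 to 6349 CPM in WT, highest in WT replicate 1, and 6317 to 6771 CPM in NHD13, and its part in the values of Gtse1 was not tested.

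The promoter windows of Ccng1 (chr11:40755237-40755536, minus strand) and of the downstream start of Gtse1 (chr15:85859696-85859995, plus strand) are shown because each holds adjacent p53 half-sites with no spacer, in capitals. In both pairs 1 base of the 20 departs from the consensus. The pair starts 195 bases before the start in Ccng1 and 1 base before it in Gtse1 (GRCm38.p6, RefSeq).
Ccng1 promoter: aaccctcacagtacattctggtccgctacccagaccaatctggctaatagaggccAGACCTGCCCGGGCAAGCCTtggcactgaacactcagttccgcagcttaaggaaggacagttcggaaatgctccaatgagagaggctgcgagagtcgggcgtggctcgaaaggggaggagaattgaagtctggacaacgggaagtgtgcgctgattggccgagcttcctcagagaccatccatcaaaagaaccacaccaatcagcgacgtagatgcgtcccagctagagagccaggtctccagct
Gtse1 promoter: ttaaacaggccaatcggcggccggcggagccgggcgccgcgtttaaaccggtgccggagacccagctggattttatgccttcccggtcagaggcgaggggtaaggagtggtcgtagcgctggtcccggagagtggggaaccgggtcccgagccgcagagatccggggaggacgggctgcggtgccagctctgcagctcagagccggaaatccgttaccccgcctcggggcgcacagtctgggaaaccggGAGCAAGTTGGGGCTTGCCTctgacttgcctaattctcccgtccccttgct

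Both polo-like kinase genes of the group were low. Plk3, a stress-activated kinase, was at 2.44 CPM in each group (log2 0.00, interval -0.47 to 0.47). Plk2 had 2, 2 and 3 counts in WT and 2, 3 and 3 in NHD13 and was not tested, with a ratio of 1.09 and a counting interval of 0.346 to 3.54.

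Across the 23 genes with a promoter window in the RefSeq table (250 bases before to 50 after the start, 34 windows), 9 genes, or 39.1%, held at least 1 exact p53 half-site, against 9.55% of the 27025 genes in the table. The motif reads the same on both strands. Besides Trp53, Aen, Ccng1 and Gtse1 the half-site was in Mdm2, Ppm1d, Ei24, Sesn1 and Polk, and among these its letters were as follows.
Mdm2: GAACTTGCCT
Ppm1d: GAGCTTGCTC
Ei24: GGGCATGCCC
Sesn1: AAGCTTGTTT
Polk: GAACTAGCCT
Paired half-sites, with up to 2 mismatches in all and up to 13 bases between them, were found in 3 of the 23 genes (Ccng1, Gtse1 and Sesn1), or 13%, against 4.71% of all genes. Of the 9 genes with a half-site, Trp53 and Aen changed in NHD13 and the other 7 did not pass. By comparison, 25.9% of the 27 tested pathway genes and 30.3% of all tested genes passed. Of the 5 other changed genes, Fas, Btg1, Btg2 and Sesn2 have windows with no exact match, and Trp53inp1 had no window in the table. These matches describe the letters of short windows, and sites elsewhere, such as those in introns, were not searched.

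None of the 5 tested genes of the repair group passed the threshold, where 30.3% of all tested genes passed. With so few genes this says little. Xpc, the damage sensor gene of global nucleotide excision repair, was at 117, 114 and 113 CPM in WT and 113, 79.9 and 87.6 CPM in NHD13. NHD13 replicate 1 was close to the lowest WT library, while replicates 2 and 3 were below every WT library. The log2 change was -0.30 (SE 0.12, adjusted p = 0.0907), and without NHD13 replicate 1 Xpc passed as lower (log2 -0.45, adjusted p = 0.00011).

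Rrm2b, the p53-inducible subunit of ribonucleotide reductase that supplies nucleotides for repair, was at 21.9, 23.7 and 21.3 CPM in WT and 20, 16.6 and 16.7 CPM in NHD13, and all NHD13 libraries were below all WT libraries. It was just short of the threshold (log2 -0.33, SE 0.11, adjusted p = 0.051). It passed without NHD13 replicate 1 (adjusted p = 0.00392), under upper-quartile (0.0365) or total-count scaling (0.0428) and by limma-voom (0.0461).

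Ercc5, the gene of the XPG endonuclease, was at 16.6, 16.8 and 16.2 CPM in WT and 16.9, 21.9 and 20.3 CPM in NHD13, higher in every NHD13 library (log2 0.25, SE 0.12, adjusted p = 0.132). Without NHD13 replicate 1 it passed (log2 0.35, adjusted p = 0.00991). Ddb2, the ultraviolet damage-binding gene, averaged 11.1 CPM ± 0.872 in WT against 10.9 CPM ± 1.11 in NHD13, and Polk, a translesion polymerase gene, at 17.8 CPM ± 1.95 and 17.2 CPM ± 1.01. Neither Ddb2 nor Polk passed in any alternative fit.

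In the group of stress, metabolism and adhesion genes, 3 of 4 were tested and 1 rose, or 33.3% against 30.3% of all tested genes. Sesn2, a sestrin that restrains mTORC1 when nutrients are short and is also induced by the ATF4 stress pathway, had 88, 89 and 101 counts in WT and 117, 213 and 162 in NHD13, or 6.96, 6.63 and 7.04 CPM against 8.78, 14.8 and 11.2 CPM. All NHD13 libraries were above all WT libraries, and NHD13 replicate 1 was the lowest of them. The log2 change of 0.76 (SE 0.19, 1.69-fold, adjusted p = 0.0205) was the largest rise among the 27 tested genes. Removing WT replicate 1, 2 or 3 took the adjusted p to 0.0572, 0.08 and 0.0717, and removing NHD13 replicate 2 or 3 took it to 0.0713 and 0.0518.

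Sesn1, the sestrin most closely tied to p53, was at 41.7, 42.7 and 41.5 CPM in WT and 30.5, 37.6 and 41.1 CPM in NHD13, with every NHD13 library below WT, and its log2 change of -0.20 (SE 0.11, adjusted p = 0.185) did not pass. Cd82, a tetraspanin gene of cell adhesion that is regulated by p53, was at 80.5, 103 and 89.3 CPM in WT and 83.9, 129 and 129 CPM in NHD13. NHD13 replicate 1 lay within WT, and the log2 change was 0.33 (SE 0.17, adjusted p = 0.166), or 0.51 without that library (adjusted p = 0.000684). Gdf15, a secreted stress cytokine gene, had 2 counts in WT replicate 1 and 0 in all other libraries, where 0 counts allow up to 0.207 to 0.225 CPM by library (3 counts).

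On a scale of CPM per kilobase of merged exons, which allows levels to be compared between genes, Trp53 was the highest in both groups, at 34.3 in WT and 41.8 in NHD13. Cd82 (30.3 and 37.9), Ccng1 (27.7 and 30.2), Xpc (20.9 and 17), Apaf1 (20.7 and 19.7) and Gtse1 (18.1 and 21.8) followed. Mdm2 was at 14.4 and 14.1. Among the lowest, Fas was at 1.52 and 0.835, Plk3 at 0.965 and 0.964, Zmat3 at 0.353 and 0.405, Eda2r at 0.11 and 0.0206, Plk2 at 0.0383 and 0.042 and Gdf15 at 0.0285 and 0.

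The position of NHD13 replicate 1 differed from gene to gene. For 6 of the 7 changed genes it was nearer to NHD13 replicates 2 and 3 than to the WT mean on the log2 CPM scale, the exception being Sesn2. The fit that called these 7 genes included this library, so their selection favours that outcome. For 16 of the 27 tested genes it was nearer to WT, a share not compared with that of all tested genes. Such nearness says little where the 2 means almost met, as for Phlda3 (0.54 in WT, 0.55 in NHD13 replicates 2 and 3). For Fas, Trp53inp1 and Btg2 NHD13 replicate 1 was farther from WT than the mean of replicates 2 and 3. With NHD13 replicate 1 left out, 5 of the 30 genes were higher (Trp53, Aen, Sesn2, Ercc5 and Cd82) and 5 lower (Fas, Btg1, Apaf1, Xpc and Rrm2b), where 24.5% of 12269 tested genes were higher and 24.2% lower.

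**Figure D4:**
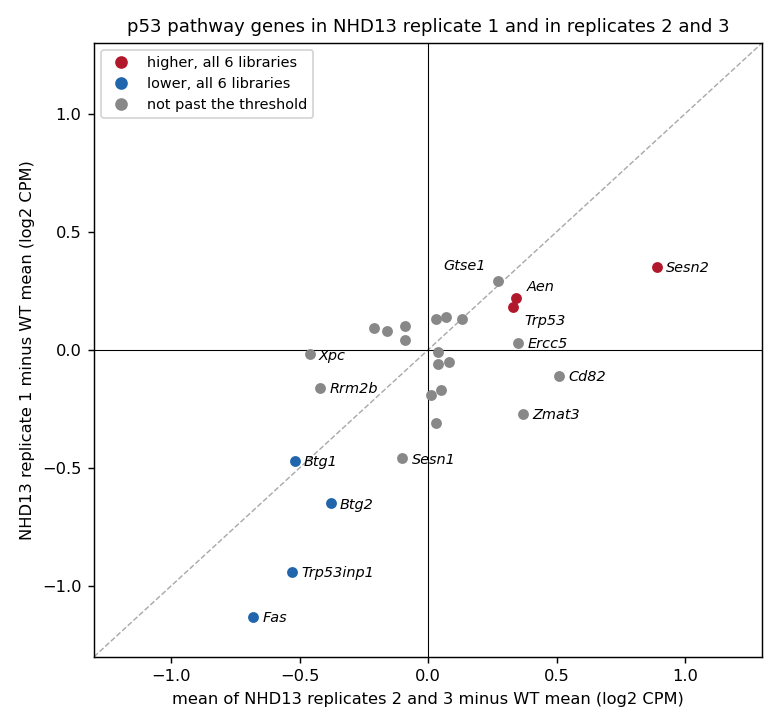
Difference from the WT mean, in log2 CPM, of NHD13 replicate 1 (y axis) and of the mean of NHD13 replicates 2 and 3 (x axis) for the 27 tested genes; the dashed line marks equal differences, and both axes share the WT libraries. Xpc, Ercc5 and Cd82 lie near the horizontal zero line. For Fas, Trp53inp1 and Btg2, which fell, NHD13 replicate 1 lies farther below the WT mean than the mean of replicates 2 and 3.

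With the share of Y-linked counts as a covariate none of the 27 genes passed, and 2.38% of all tested genes passed (edgeR quasi-likelihood test). The log2 changes kept their direction, at 0.30 for Trp53 (adjusted p = 0.21), 0.27 for Aen (0.317), 0.58 for Sesn2 (0.297), -0.82 for Fas (0.247), -0.43 for Trp53inp1 (0.411), -0.43 for Btg1 (0.202) and -0.42 for Btg2 (0.38).

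Of 65 other genes of the pathway, 64 had a row, 58 were tested, 10 rose and 6 fell, with a median log2 change of 0.05. The 16 came to 27.6% of those tested, near the 30.3% of all tested genes. Among 10 upstream kinases and sensors, Nbn, a component of the double-strand break sensor MRN, averaged 49.9 CPM ± 1.44 in WT and rose to 65.5 CPM ± 5.74 in NHD13 (log2 0.39, adjusted p = 0.00874), the checkpoint kinase gene Chek2 rose (log2 0.36) and Mapkapk2 fell (log2 -0.49). Atm, Atr and Chek1 did not pass, with log2 changes of -0.04, 0.10 and 0.12. Nbn, Chek2 and Mapkapk2 came to 30% of this list, against 30.3% of all tested genes. Of 16 tested binding proteins and modifiers, Usp7, which encodes the deubiquitinase of MDM2 and p53, Herc2 and Npm1 rose (log2 0.29, 0.23 and 0.26) and none fell. These came to 18.8% of the list, against 30.3% of all tested genes, and Npm1 was just past the threshold (edgeR adjusted p = 0.0497). The p53 paralog gene Trp73 was not tested, with a mean of 0.023 CPM in NHD13 and 0 in WT.

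Among 32 tested further p53 targets, 5 rose and 5 fell, or 31.2% against 30.3% of all tested genes. Steap3, a ferrireductase gene of red cell precursors also reported as a p53 target, rose from 71.9, 71.7 and 75.2 CPM to 110, 155 and 161 CPM (log2 0.97, adjusted p = 0.00185) and passed in all 15 alternative fits. Pml, the nuclear body scaffold gene, was 1.45-fold higher in NHD13, at 116, 151 and 152 CPM against 95.7, 94.9 and 98 CPM (adjusted p = 0.00709), and Tsc2, an inhibitor of mTORC1, rose 1.22-fold (adjusted p = 0.0115), but did not pass when WT replicate 3 (0.0604) or either of NHD13 replicates 2 and 3 (0.0552 and 0.0585) was dropped. Gadd45a and Rps27l rose as well.

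Among the targets that fell, Epha2, an ephrin receptor gene, had 12, 39 and 32 counts in WT and 0, 0 and 1 in NHD13, a ratio of WT to NHD13 of 86.9 with a 95% counting interval of 15.2 to 3474 (adjusted p = 0.00206), and its WT counts alone carried it past the filter on low counts. Dram1, a lysosomal gene of autophagy, fell from 71.1, 76.7 and 79 CPM to 58.5, 46.6 and 41.9 CPM (log2 -0.63, adjusted p = 0.00641). Tnfaip8 fell by 0.50 on the log2 scale (adjusted p = 0.028), a call lost without any single library other than NHD13 replicate 1 (0.065 to 0.1) and with no filter on low counts (0.056). Ninj1 also fell.

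Markers of several cell types moved with the groups, and in bulk RNA fewer cells of a type and less RNA per cell cannot be told apart. Of 11 tested markers of long-term stem cells, Mecom and Mllt3 rose and Hlf, Tie1, Meis1 and Ly6a fell, with log2 changes from -2.46 for Tie1 to 2.73 for Mecom. All 9 markers of multipotent and early lymphoid progenitors fell (summed 381 to 464 CPM in WT, 106 to 164 CPM in NHD13), as did 6 of 7 monocyte and macrophage genes (470 to 628 and 140 to 207 CPM), 5 of 6 mast cell and basophil genes (225 to 532 and 19.8 to 42.1 CPM), all 6 dendritic cell genes (302 to 433 and 70.5 to 121 CPM) and 6 of 11 neutrophil genes (48772 to 62878 and 36641 to 39435 CPM). Of 7 tested erythroid genes 5 rose (1852 to 2101 and 2348 to 3883 CPM). Of the tested B cell genes 2 of 3 fell (20.8 to 28.2 and 12.8 to 17.4 CPM), and of the T and NK cell genes 3 of 5 (7.67 to 15.9 and 4.73 to 7.43 CPM). Of 5 megakaryocyte genes 1 rose and 1 fell, and of 3 tested stromal and endothelial genes 1 fell. Over all tested genes 15% rose and 15.3% fell. No marker of these lists was at 0 in all 6 libraries. These shifts ran alongside the falls of Fas, Trp53inp1, Btg1 and Btg2 and the rise of Steap3, and their part in them was not tested.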

How the data were processed

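The authors deposited counts that are not normalised, 1 whole number for each gene in each library. The tools named in the submitters' processing notes are Bowtie2 2.2.1 and HTSeq 0.5.4p3, with build mm10. The annotation and strand setting were not given in the sources used here. Columns were matched to samples by letters and replicate number. Floors (3 counts) and intervals cover counting error only. As a check for duplicate deposits of a library, counts were compared within groups. The closest pair differed by a chi-square per degree of freedom of 3.504, above sampling noise, so each library was counted once.

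NHD13 was compared with WT in edgeR 4.0.16 (R 4.3.3): filterByExpr with a minimum count of 10, which set 5510 of 17523 genes aside, TMM scaling, and the robust quasi-likelihood F test with group as its term, adjusted over all genes tested. All tests were two-sided. Standard errors were taken as the size of the log2 change over the root of its F value. CPM uses the counts of tested genes times the TMM factor. The fits were tested on simulated data. Alternatives included DESeq2 1.42.0 and limma 3.58.1.

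All 30 genes were described, with values in every library for those past the threshold. Of the other pathway genes, up to 4 per direction with the lowest p were described in full, except 1 that is not reported here. Other genes of those lists were named after their values were seen, where a count was small. The genes and lists were chosen with earlier results of these data known. Older symbols matched 4 entries. Of the 30 genes, 12 overlap another gene model (GENCODE vM21), 9 of them one on the opposite strand, so their counts are uncertain; Fas and Sesn2 overlap a predicted gene on their own strand.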

Additional observations from a re-analysis of the deposited data

How the results depend on the processing

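Across 15 alternatives, no gene of the 30 that passed the threshold in any fit changed sign. Leaving out single libraries gave 0 to 5 higher and 1 to 5 lower genes of the 30, 760 to 3012 higher and 957 to 2966 lower genes in all, 3 to 16 higher and 2 to 11 lower other pathway genes, and a median log2 change of the 27 genes of -0.04 to 0.03. Without replicate 1 of both groups, which left 2 libraries per group, these were 6 and 7, 3244 and 3245 (53.3% of tested genes), 17 and 15, and 0.03. With a Y-linked covariate they were 0 and 0, 111 and 175, 1 and 1, and 0.02; the covariate itself differs between WT and NHD13. Under upper-quartile scaling 2 of the 30 genes were higher and 5 lower, with 1427 higher and 2132 lower genes in all and a median of -0.07, against -0.04 over all genes. The cause of these differences was not tested. DESeq2 (3 higher, 4 lower) and limma-voom (3 and 4) gave the same counts as edgeR.

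The labels do not say what the replicate numbers share. Deviations of same-numbered libraries correlated at 0.249, 0.0632 and 0.175, not all above 0.1, so the numbers were not used as pairs. A fit with the replicate block gave 5 higher and 6 lower of the 30 genes, adding Gtse1, Xpc, Rrm2b and Cd82, with 35.3% of all tested genes past the threshold. Each WT library correlated best with its own number, but NHD13 replicate 2 correlated best with WT replicate 3 (0.149). The filter on low counts set Eda2r, Plk2 and Gdf15 aside. With no filter their adjusted p was 0.0232, 0.927 and 0.378, at 31 counts or fewer each.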
